A study of Mus musculus with 12 samples.

Results

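The genes described here are 10 transcription factors that mark progenitor cells of the neural tube and divide it into domains from its dorsal to its ventral side. The members are *Sox1*, *Sox3*, *Pax6*, *Pax3*, *Pax7*, *Irx3*, *Irx5*, *Olig2*, *Nkx6-1* and *Dbx1*, taken by name from the 38911 genes listed in the count files. They were measured by RNA sequencing in mouse gastruloids, aggregates of embryonic stem (ES) cells that form the early tissues of the embryonic trunk in culture. The gastruloids were started from 200 cells of the mouse ES cell line E14TG2a grown in 2iLIF medium, received a pulse of the Wnt agonist CHIR99021 on day 2, were treated for the last day and were harvested on day 4. All groups shared these steps. The control group had 1× glucose (21.25 mM), and the others had no glucose (0×), 3× glucose (63.75 mM) or 5 mM 2-DG (2-deoxy-D-glucose, a glucose analog that competes at hexokinase) added to 1× glucose. Each group holds 3 libraries, 1 from each of ES cell passages 13, 15 and 16, and each library was made from pooled gastruloids of 1 culture.

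In the neural tube, SoxB1 factors keep cells in the progenitor state, and each band of progenitors along the dorsoventral axis is defined by a combination of homeodomain and bHLH factors. Sonic hedgehog from the floor plate and notochord induces the ventral factors Nkx6-1 and Olig2 and represses others such as Pax3 and Pax7, while Irx3, Pax6 and Dbx1 occupy intermediate positions. Pairs of these factors repress each other across a boundary, as Irx3 and Olig2 do. Several members are also used outside the neural tube, among them Pax3 and Pax7 in the dermomyotome of the somite.

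The library totals ran from 31902471 to 45956080 counts. Levels are given as CPM (counts per 1000000 counts of the library, scaled by TMM factors), with the mean ± SD over 3 libraries. Bulk RNA cannot tell fewer cells of a type from less RNA per cell. All but 1 of the members passed the filter on low counts, so 9 of 10 were tested among 16966 genes. *Dbx1* did not pass it and is described by its counts. Differences are fitted log2 fold changes from edgeR's quasi-likelihood test, and a gene was called at a Benjamini-Hochberg adjusted p below 0.05 over all genes tested. For the treatments the fit had no passage term unless the passage is named as a block. Its p-values therefore include the spread between passages.

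Levels can be ranked between genes only per length of transcript. In 1× glucose the highest mean levels per kilobase were those of *Pax3* at 6.41 ± 4.82 CPM per kb and *Sox3* at 6.41 ± 5.32 CPM per kb. *Irx3* had a mean of 4.23 ± 1.45 CPM per kb, within the spread of both, so these 3 cannot be ordered. Lower means were those of *Irx5* at 1.74 ± 0.38, *Pax6* at 1.34 ± 0.32 and *Sox1* at 1.15 ± 0.42 CPM per kb. These last 3 lay within their spread of one another. *Pax7* stood at 0.57 ± 0.24 CPM per kb by the length of Pax7-201, which took 0.69% of its counts, since the transcript with 98.7% had no length in the table used. *Nkx6-1* stood at 0.27 ± 0.06 and *Olig2* at 0.14 ± 0.14 CPM per kb, and *Dbx1* had no count in 1× glucose. The ventral factors were therefore near the lower end of detection, with at most 45 counts of *Nkx6-1* and 27 of *Olig2* in any library. In 2-DG the order per kilobase began with *Irx3* at 15.8 ± 6.5 CPM per kb and *Sox3* at 14 ± 8.3 CPM per kb, which overlap, and ended with *Dbx1* at 0.20 ± 0.17, *Nkx6-1* at 0.10 ± 0.03 and *Olig2* at 0.05 ± 0.04 CPM per kb.

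2-DG was compared with 1× glucose to ask which of these factors differ when the analog is added. *Sox1*, *Irx3*, *Irx5* and *Pax6* rose in 2-DG, by 2.45-fold for *Pax6* to 3.74-fold for *Irx3*, and *Nkx6-1* fell to 0.37 of its level. *Sox3*, *Pax3*, *Pax7* and *Olig2* were not called. So 5 of the 9 tested members were called (4 higher, 1 lower), where 17.6% of all genes tested were called, 9.12% higher and 8.51% lower. The median log2 fold change of the 9 was 1.13, and that of all genes was 0.00.

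**Figure D1:**
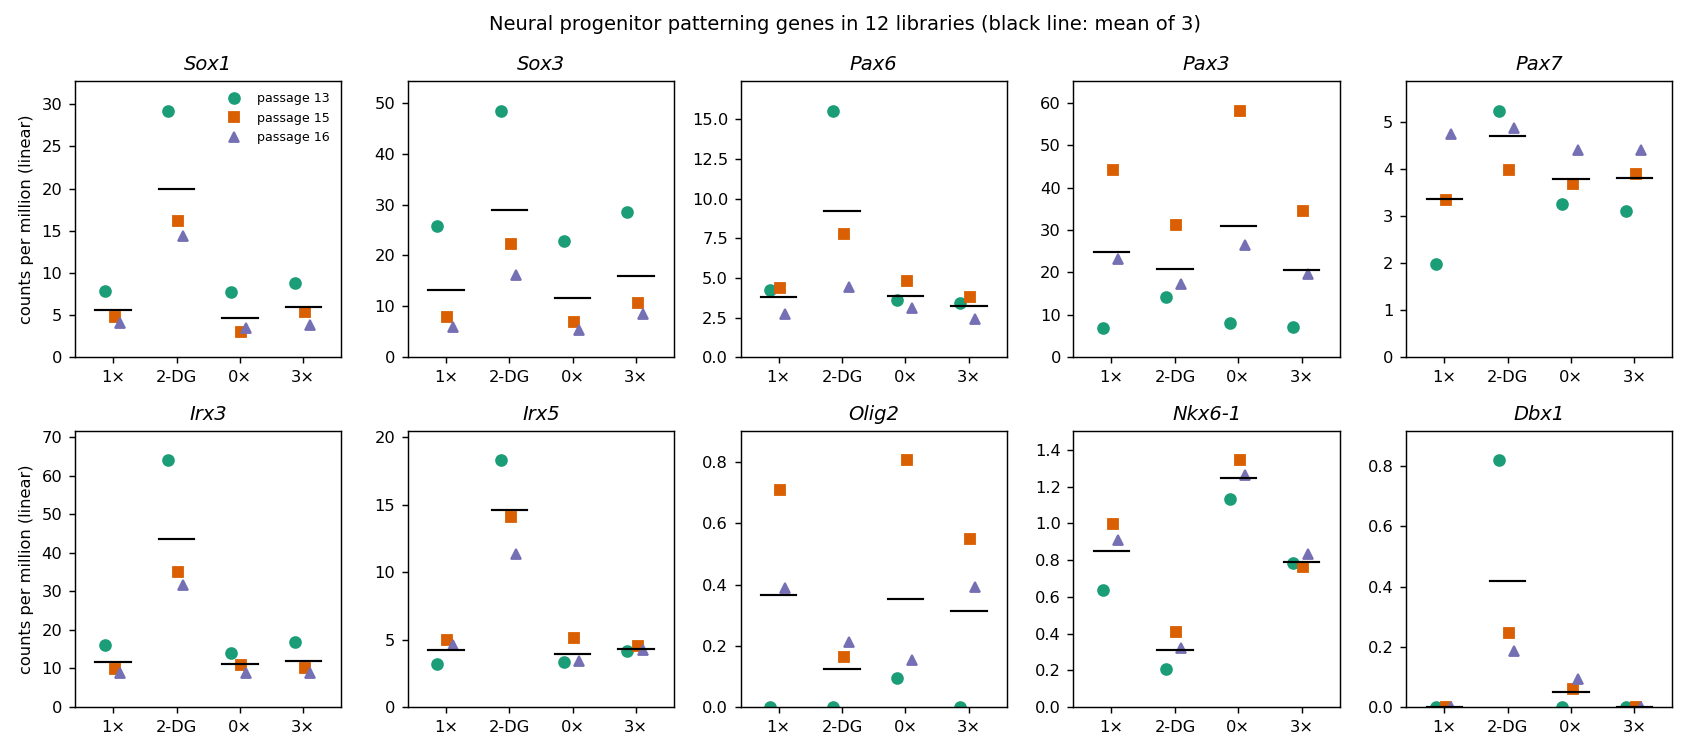
CPM (linear axis from 0, a scale of its own for each gene) of the 10 genes in the 12 libraries, by group, with the passage of each library as colour and shape and the mean of each group as a black line. *Sox1*, *Irx3* and *Irx5* lie higher in all 3 2-DG libraries than in any of the other 9, *Nkx6-1* lies lower, and *Sox3* and *Pax3* separate the libraries of passage 13 from the others.

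*Sox1*, the SoxB1 factor that first marks committed neural cells, had 7.86, 4.79 and 4.08 CPM in the 1× glucose libraries of passages 13, 15 and 16. In 2-DG it had 29.2, 16.2 and 14.4 CPM, so that every 2-DG library lay above every control. The log2 fold change was 1.84 (SE 0.45, adjusted p = 0.0185), and within passages the ratio was 3.72-fold, 3.37-fold and 3.53-fold. With the passage as a block the log2 fold change was 1.82 (SE 0.13, adjusted p = 4.1e-06). In the fit without the block, the call was lost when the 2-DG library of passage 13 was left out (log2 fold change 1.45, adjusted p = 0.0683). It was also lost without the 1× library of passage 15 (1.73, adjusted p = 0.0733) or of passage 16 (1.65, adjusted p = 0.0644). With every gene counted by its most abundant transcript alone it was lost too (1.84, adjusted p = 0.0735). *Sox1* has 1 transcript, so its own counts are the same there and only those of other genes differ.

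*Sox3*, a second SoxB1 gene that is also expressed in the epiblast, depended far more on the passage. It had 25.9, 8.0 and 5.86 CPM in 1× glucose and 48.5, 22.3 and 16.2 CPM in 2-DG. The 2 groups overlapped, since the 1× library of passage 13 lay above the 2-DG libraries of passages 15 and 16. In each passage, however, 2-DG was higher, by 1.87-fold, 2.79-fold and 2.77-fold. The fit without the passage gave a log2 fold change of 1.13 (SE 0.74, adjusted p = 0.332), and the fit with the passage as a block gave 1.28 (SE 0.12, adjusted p = 2.2e-05). With the block 6 of the 9 tested members were called, *Sox3* being the addition, and so were 41.3% of all genes. *Sox2*, the third SoxB1 gene and no member, had a log2 fold change of 0.52 (SE 0.57, adjusted p = 0.595) without the block and 0.58 (SE 0.08, adjusted p = 0.000181) with it.

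*Irx3* and *Irx5*, Iroquois homeodomain factors of intermediate and dorsal progenitors, were higher in 2-DG in every passage. *Irx3* had 16.2, 9.89 and 8.79 CPM in 1× glucose and 64.1, 35.0 and 31.6 CPM in 2-DG for passages 13, 15 and 16. Every 2-DG library lay above every control, and the log2 fold change was 1.90 (SE 0.35, adjusted p = 0.00492). With the passage as a block it was 1.89 (SE 0.09, adjusted p = 7.5e-07). *Irx5* had 3.21, 4.95 and 4.60 CPM in 1× glucose and 18.3, 14.1 and 11.4 CPM in 2-DG. It gave the smallest adjusted p of the members without the block, with a log2 fold change of 1.78 (SE 0.23, adjusted p = 0.000837). With the block it had 1.78 (SE 0.20, adjusted p = 7.8e-05).

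The 2 Iroquois genes lie 556142 bases apart on chromosome 8 (GRCm38.p6), *Irx3* at 91798511 to 91801654 and *Irx5* at 92357796 to 92361456. *Crnde*, a long non-coding RNA gene that ends 1676 bases before the start of *Irx5*, rose from 1.43 to 3.88 CPM on average, with a log2 fold change of 1.44 (SE 0.34, adjusted p = 0.0157). *Irx3os*, an RNA gene 1682 bases from *Irx3*, had a log2 fold change of 1.38 (SE 0.47, adjusted p = 0.0693). *Fto*, 130078 bases on the other side of *Irx3*, had one of 0.13 (SE 0.05, adjusted p = 0.113), and *Irx6*, the last gene of the cluster, one of 1.08 (SE 0.95, adjusted p = 0.494). *Rpgrip1l*, 485220 bases from *Irx3* on the side of *Fto*, fell (log2 fold change -0.46, SE 0.06, adjusted p = 0.00104). These 5 neighbours were chosen after their values were seen. The library kit keeps the strand, but whether the counting used it is not given in the sources used here. *Irx3* and *Irx5* transcripts shared 1 stretch of 50 identical bases, and none was shared by *Pax3* with *Pax7* or between the SoxB1 genes.

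*Pax6*, a paired-type homeodomain factor of intermediate progenitors, had 4.24, 4.34 and 2.72 CPM in 1× glucose and 15.5, 7.79 and 4.4 CPM in 2-DG. The lowest 2-DG library lay just above the highest control library. The log2 fold change was 1.29 (SE 0.40, adjusted p = 0.0464), close to the threshold, and the within-passage ratio was 3.67-fold in passage 13, 1.79-fold in passage 15 and 1.61-fold in passage 16. The call was lost without any of the 1× libraries (adjusted p = 0.0806 for passage 13, 0.0933 for passage 15 and 0.135 for passage 16) and without the 2-DG library of passage 15 (adjusted p = 0.0788). Without the 2-DG library of passage 13 the log2 fold change was 0.69 (adjusted p = 0.181). With the passage as a block it was 1.21 (adjusted p = 0.00342).

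*Dbx1*, which marks the progenitors of an intermediate domain, had no count in any of the 3 libraries of 1× glucose or of 3× glucose, where 0 counts allow up to 3. It had 0, 2 and 3 counts in 0× glucose and 28, 9 and 7 counts in 2-DG for passages 13, 15 and 16. Against 3 counts per library, the mean level in 2-DG was at least 5.97-fold higher than in 1× glucose. In 0× glucose, where some counts were seen, no bound is given. Its mean was 0.05 ± 0.05 CPM against 0.42 ± 0.35 CPM in 2-DG. The ratio of 2-DG to 0× glucose was 4.10-fold in passage 15 and 2.02-fold in passage 16. Every 2-DG library had more counts than any other library, but the numbers are small, and the bound rests mostly on passage 13.

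The promoter of *Dbx1* is shown because this gene had counts above the floor in the 2-DG libraries alone, and that of *Olig2* because it had so few in passage 13. Both stretches are from the RefSeq table (GRCm38.p6), which held 7 of the 10 members and none of *Sox3*, *Pax3* and *Irx5*, and end just before the first transcript start in GENCODE. They run 5′ to 3′ along the gene's strand and lie at chr7:49636850-49637085 (minus strand, 236 bases) and chr16:91225300-91225456 (plus strand, 157 bases). Capitals mark the letters of 3 common promoter motifs, each searched on both strands. The GC box was searched as GGGCGG. The box of factor NF-Y was searched by the letters CCAAT that also give its name. The last motif, the box bound by the TATA binding protein, was searched as TATAAA.
Dbx1: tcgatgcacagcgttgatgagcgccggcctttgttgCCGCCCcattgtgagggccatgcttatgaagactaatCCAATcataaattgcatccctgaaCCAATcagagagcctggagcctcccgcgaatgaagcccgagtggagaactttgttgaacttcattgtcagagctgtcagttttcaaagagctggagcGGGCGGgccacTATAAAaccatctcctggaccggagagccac
Olig2: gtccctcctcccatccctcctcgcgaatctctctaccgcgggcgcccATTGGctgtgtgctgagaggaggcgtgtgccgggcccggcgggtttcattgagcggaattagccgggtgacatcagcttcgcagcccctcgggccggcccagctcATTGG

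The *Dbx1* stretch held 2 GC boxes, 2 CCAAT boxes and 1 TATA box, which begins 31 bases before its end. A stretch of this length held a GC box in 30.8%, a CCAAT box in 32.7% and a TATA box in 11.9% of all promoters of the table. The *Olig2* stretch held 2 CCAAT boxes and neither of the others. At its length 21.0% of promoters held a CCAAT box. The homeodomain core TAATTA and the TCF/LEF motif CTTTGAT, a motif of Wnt targets, were searched in the same way and were in neither stretch. At these lengths TAATTA was in 4.75% and 3.39% of promoters, and CTTTGAT in 3.06% and 2.07%.

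*Pax3* and *Pax7*, paired-type factors of the dorsal neural tube and of the dermomyotome, were not called in 2-DG. *Pax3* had 6.98, 44.1 and 23.2 CPM in 1× glucose and 14.1, 31.1 and 17.2 CPM in 2-DG. It was higher in 2-DG in passage 13, by 2.03-fold, and lower in passages 15 and 16, at 0.71 and 0.74 of the control. The log2 fold change was -0.25 (SE 0.78, adjusted p = 0.871), and with the passage as a block it was 0.03 (SE 0.26, adjusted p = 0.950). *Pax7* had 1.98, 3.34 and 4.75 CPM in 1× glucose and 5.24, 3.98 and 4.87 CPM in 2-DG, a log2 fold change of 0.48 (SE 0.27, adjusted p = 0.262). Its 95% interval reached from -0.12 to 1.09.

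*Nkx6-1*, a homeodomain factor of the ventral progenitors, had 29, 38 and 42 counts in 1× glucose and 7, 15 and 12 counts in 2-DG. These are 0.64, 1.00 and 0.91 CPM against 0.20, 0.41 and 0.32 CPM, so the groups did not overlap. The log2 fold change was -1.43 (SE 0.26, adjusted p = 0.00516), and the level fell in all 3 passages. *Olig2*, the bHLH factor of motor neuron progenitors, had 0, 27 and 18 counts in 1× glucose and 0, 6 and 8 counts in 2-DG. The log2 fold change of -1.47 had an SE of 1.37 and an adjusted p of 0.521. With the passage as a block it was -1.43 (SE 0.70, adjusted p = 0.127), with a 95% interval of -2.98 to 0.11.

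**Figure D2:**
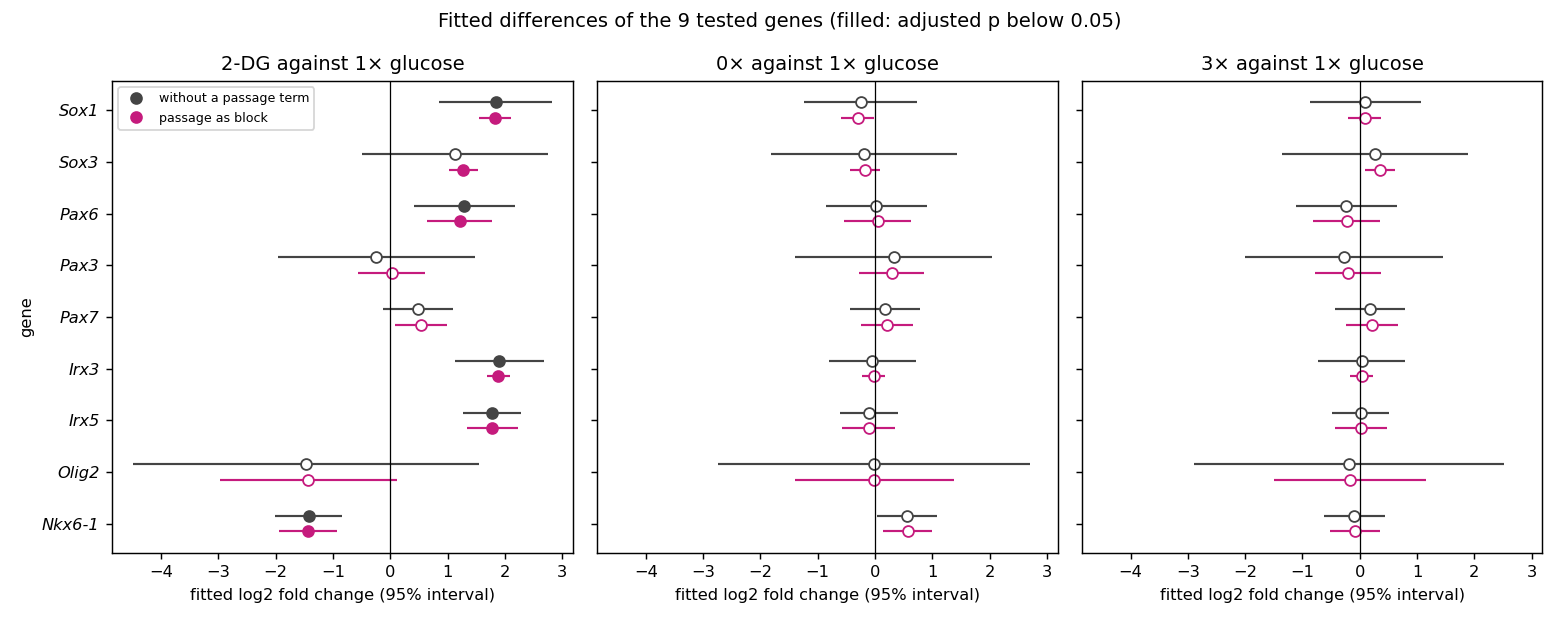
Fitted log2 fold changes against 1× glucose of the 9 tested genes with 95% intervals, in the fit without a passage term (grey) and with the passage as a block (magenta), filled where the adjusted p is below 0.05. In 2-DG 5 and 6 genes are filled, and in 0× and 3× glucose none is.

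Counted by library, 6 of the 10 members did not overlap between 2-DG and 1× glucose (5 higher, with *Dbx1*, and 1 lower), where the groups did not overlap in 35.4% of the genes tested. 2-DG was also set against 0× glucose, to compare addition of the analog with removal of glucose. The comparison shares its 2-DG libraries with the one above and is not independent of it. The 5 called members were *Irx3* (log2 fold change 1.96, SE 0.35, adjusted p = 0.00397), *Irx5* (1.88, SE 0.23, adjusted p = 0.000593), *Sox1* (2.09, SE 0.45, adjusted p = 0.0103), *Pax6* (1.27, SE 0.40, adjusted p = 0.0487) and *Nkx6-1* (-1.99, SE 0.26, adjusted p = 0.000856). Of all genes 18.9% were called, 9.86% higher and 9.04% lower. With the passage as a block 6 members and 43.1% of all genes were called, and *Sox3* was again the addition (log2 fold change 1.45, SE 0.12, adjusted p = 9.1e-06). The groups did not overlap in 5 of the 10 members and in 37.9% of all genes. The *Pax6* call ended when the 2-DG library of passage 13 was left out (adjusted p = 0.192) or that of passage 15 (0.0741), and without the 0× library of passage 13 (0.111), 15 (0.0727) or 16 (0.144).

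In 0× glucose no member was called. *Sox1* had 7.70, 2.96 and 3.42 CPM in 0× glucose, *Sox3* 22.8, 6.93 and 5.27, and *Irx3* 13.9, 10.9 and 8.75 CPM in passages 13, 15 and 16. These lie in or beside the range of 1× glucose. *Irx5* had 3.34, 5.14 and 3.39 CPM and *Pax6* 3.6, 4.81 and 3.08 CPM. Of the 9 tested members 0 were called by edgeR and 0 by DESeq2, where edgeR called 0.0118% of all genes (2 genes). At an unadjusted p below 0.05 there was 1 member, *Nkx6-1*, with 36, 45 and 41 counts in 0× glucose. That is 1.14, 1.34 and 1.26 CPM, higher than all 3 controls, with a log2 fold change of 0.56 (SE 0.24, unadjusted p = 0.0389, adjusted p = 1.00). With the passage as a block 0.0177% of all genes were called and again no member, and *Nkx6-1* (unadjusted p = 0.0128) and *Sox1* (log2 fold change -0.30, SE 0.13, unadjusted p = 0.0431) were below 0.05 before adjustment. *Nkx6-1* was the 1 member of 10 whose 0× and 1× libraries did not overlap, and such genes were 5.63% of all tested.

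In 3× glucose 0 members were called by edgeR and 0 by DESeq2, no member was below 0.05 before adjustment, and 0% of all genes were called with or without the block. *Sox1* had 8.76, 5.39 and 3.82 CPM, *Irx3* 16.7, 10.1 and 8.85 CPM and *Irx5* 4.12, 4.51 and 4.23 CPM. All 10 members overlapped with 1× glucose, and 4.47% of the genes tested did not. With the passage as a block *Sox3* had a log2 fold change of 0.36 (SE 0.12, unadjusted p = 0.0119, adjusted p = 0.905). The intervals bound what these libraries could hide. For *Irx3* the 95% interval of the log2 fold change in the blocked fit was -0.22 to 0.17 in 0× glucose and -0.16 to 0.23 in 3× glucose, whereas that for 2-DG was 1.69 to 2.08. For *Olig2* it was -1.40 to 1.37 in 0× glucose, which leaves large differences undetected. All 3 comparisons share the 1× libraries.

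The passage of the ES cells was a second axis on which the members differed. The 3 passages were tested together with the group in the fit, and each passage is 1 culture, so the test compares these cultures. *Sox3*, *Sox1*, *Irx3*, *Pax6*, *Pax3* and *Olig2* were called, 6 of 9, where 46.2% of all genes were. *Irx5* (adjusted p = 0.404), *Nkx6-1* (0.204) and *Pax7* (0.0877) were not.

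The SoxB1 genes and *Irx3* were highest in passage 13. Without 2-DG, *Sox3* had 22.8 to 28.6 CPM in passage 13, 6.93 to 10.7 in passage 15 and 5.27 to 8.54 in passage 16. Its log2 fold change against passage 13 was -1.48 in passage 15 and -1.89 in passage 16 (adjusted p = 1.6e-06 over both). For *Sox1* these were -0.90 and -1.08 (adjusted p = 5.5e-05), and for *Irx3* -0.67 and -0.88 (adjusted p = 2.3e-05). *Pax6* fell in passage 16 by 0.86 on the log2 scale and stood at -0.17 in passage 15 (adjusted p = 0.0233). These values include the 2-DG library of passage 13, the highest in *Pax6*. In the 3 glucose groups alone its mean was 3.74 CPM in passage 13, 4.31 in passage 15 and 2.74 in passage 16, so that passage 15 lay above passage 13.

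*Pax3* and *Olig2* went the other way. Over all 4 groups *Pax3* had 6.98 to 14.1 CPM in passage 13, 31.1 to 58.1 in passage 15 and 17.2 to 26.6 in passage 16, and the passages did not overlap. Its log2 fold changes against passage 13 were 2.19 and 1.25 (adjusted p = 0.000143). *Olig2* had 0 to 3 counts in the libraries of passage 13, 6 to 27 in passage 15 and 5 to 18 in passage 16. Set against 3 counts in each library of passage 13, its mean was 6.65-fold higher in passage 15 and 3.42-fold higher in passage 16. It was called over both passages (adjusted p = 0.00247). Markers of the paraxial mesoderm and somite moved with the passage too. Of 12 tested genes of that list 11 were called over both passages, where 46.2% of all genes were. Of these, 10 were higher in passage 15 than in passage 13. The 1 that was lower there, *Msgn1*, had a log2 fold change of -0.16 in passage 15 and 0.75 in passage 16. The median log2 fold change in passage 15 was 2.22, against -0.01 over all genes. In 1× glucose the list summed to 426 to 1262 CPM. Its part in the level of *Pax3* was not tested.

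**Figure D3:**
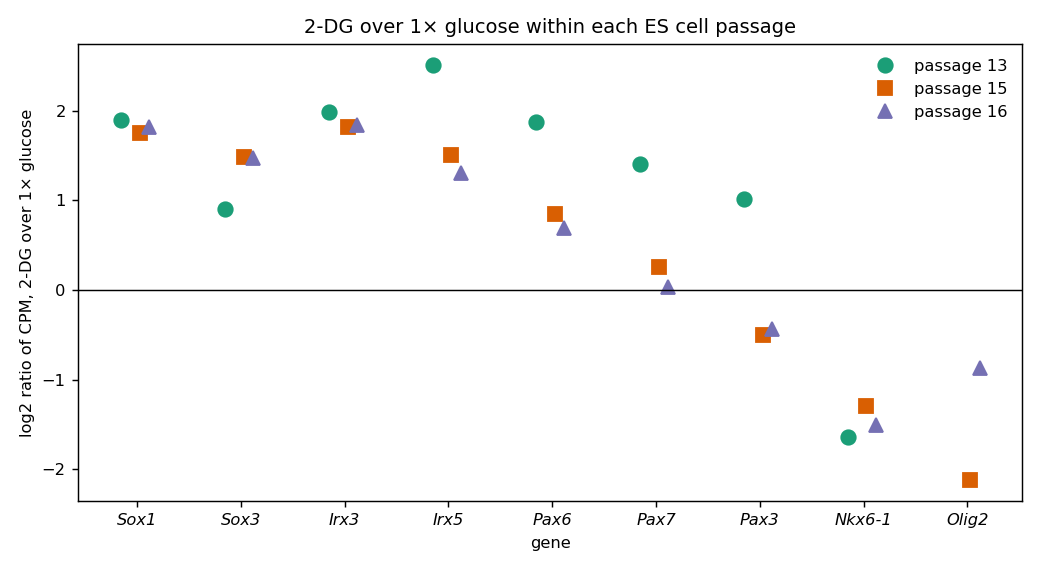
Log2 ratio of CPM in 2-DG over 1× glucose within each ES cell passage for 9 genes (*Dbx1* had no count in 1× glucose, and *Olig2* none in passage 13). The 3 ratios of *Sox1* and *Irx3* lie close together, those of *Irx5*, *Pax6*, *Pax7* and *Pax3* are highest in passage 13, and *Pax3* crosses 0.

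The ratio of 2-DG to 1× glucose varied between passages for some members. For *Irx5* it was 5.71-fold in passage 13, 2.84-fold in passage 15 and 2.47-fold in passage 16. *Pax7* had 2.65-fold, 1.19-fold and 1.03-fold. *Irx3*, at 3.96-fold, 3.53-fold and 3.59-fold, varied less, as did *Sox1*. Each ratio compares 1 library with 1 library, and no test of the difference between passages is given.

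The counts of a gene are the sum of those that the authors' program apportioned to its transcripts, and both main transcripts of *Pax6* had more counts in 2-DG in every passage. Transcript Pax6-225 had 75, 69 and 57 counts in 1× glucose and 386, 160 and 86 in 2-DG for passages 13, 15 and 16. Pax6-201, which starts 615 bases downstream at 105676128 on chromosome 2, had 77, 80 and 55 counts in 1× glucose and 113, 94 and 73 in 2-DG. The first gained more than the second in every passage. Its share of the *Pax6* counts in passages 13, 15 and 16 was 38.9%, 41.8% and 45.2% in 1× glucose and 72.7%, 55.9% and 52.1% in 2-DG. In 3× glucose, where *Pax6* was not called, the share was 38.5%, 61.3% and 65.7%, so a high share was not particular to 2-DG. Pax6-225 alone, in a fit of each gene's most abundant transcript, had a log2 fold change of 1.93 and was not called (adjusted p = 0.0984). No other *Pax6* transcript was tested alone. *Irx3* showed how unstable the apportioning can be. In the 2-DG library of passage 15, 588 of its 1283 counts (45.8%) went to Irx3-201, which had 0 to 19 counts in the other 11 libraries. Summing both transcripts removes this split. In the fit of each gene's most abundant transcript, which took Irx3-202 alone, the *Irx3* call was lost (log2 fold change 1.74, adjusted p = 0.0745). That fit changes the counts of many genes at once. In it the adjusted p of *Sox1*, which has 1 transcript, went from 0.0185 to 0.0735. The part of the split in the lost *Irx3* call was not tested.

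**Figure D4:**
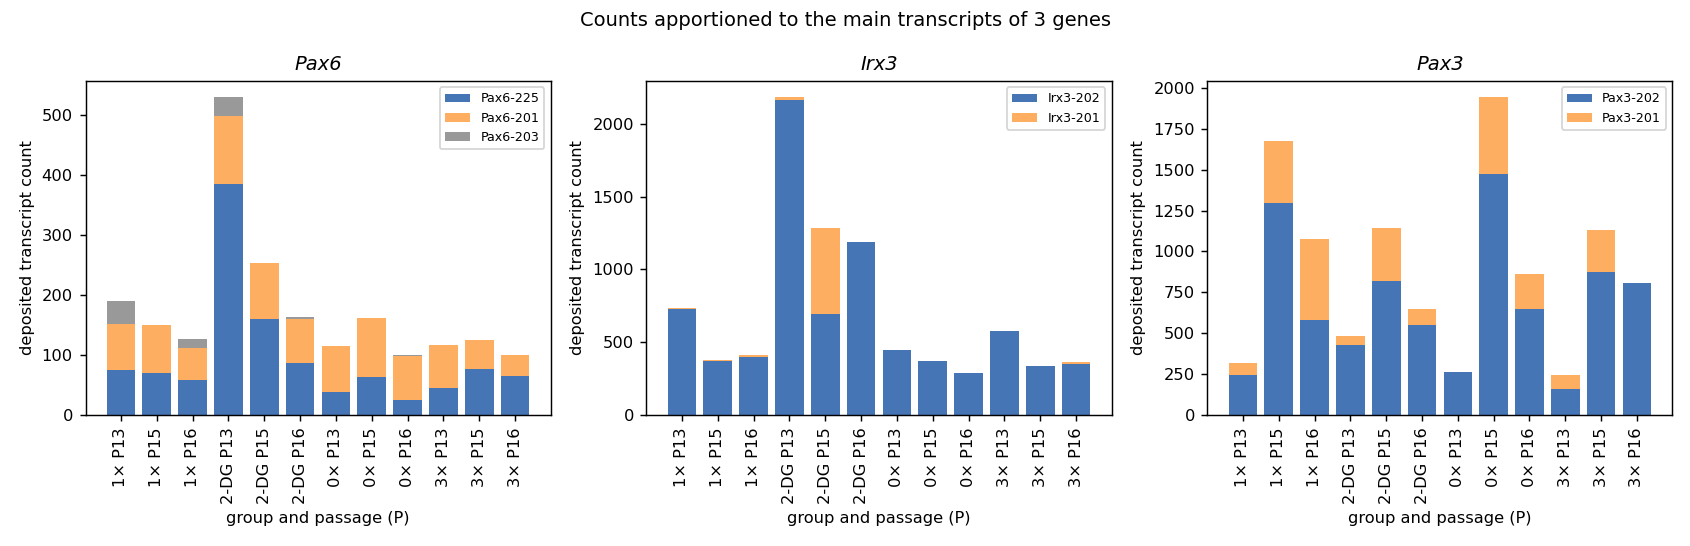
Deposited counts of the main transcripts of *Pax6*, *Irx3* and *Pax3* in the 12 libraries, stacked, on a linear axis from 0 (P, passage). Blue Pax6-225 makes up most of the *Pax6* counts in the 2-DG library of passage 13, and orange Irx3-201 appears at height in the 2-DG library of passage 15 alone.

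Other genes of the dorsoventral axis were taken from lists of domain markers. Of the intermediate list, 8 of 13 genes were tested, and 2 rose in 2-DG and 0 fell, where 17.6% of all genes were called. *Irx2*, an Iroquois gene of another cluster, rose by a log2 fold change of 0.68 (SE 0.15, adjusted p = 0.0127), and *Ptf1a*, a bHLH factor of dorsal interneuron progenitors, by 2.40 (SE 0.72, adjusted p = 0.0422). *Irx1* had 0.46 (SE 0.40, adjusted p = 0.492), *Pax2* -0.39 (SE 0.26, adjusted p = 0.337) and *Prdm8* 0.00 (SE 0.16, adjusted p = 0.996). The median of the 8 was 0.88, and *Gsx2* and *Prdm12* had no count in any group.

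Of the dorsal and roof plate list, 6 of 11 genes were tested and 0 were called, where 17.6% of all genes were. Their median log2 fold change was 0.38. *Zic2* had 0.26 (SE 0.32, adjusted p = 0.653), *Msx1* 0.43 (SE 0.50, adjusted p = 0.612), *Zic1* 0.18 (SE 0.32, adjusted p = 0.767) and *Zic5* 0.32 (SE 0.27, adjusted p = 0.472). With the block 3 of the 6 rose, *Msx2*, *Zic2* and *Zic5*, where 41.3% of all genes were called. Of the ventral and floor plate list, 6 of 8 were tested and 0 were called, where 17.6% of all genes were. Their median was -0.12. *Foxa2*, a floor plate and endoderm factor, had -1.68 (SE 0.92, adjusted p = 0.240), and *Shh*, the ventral signal itself, -1.44 (SE 1.24, adjusted p = 0.480). *Nkx2-9* had 0.75 (SE 0.49, adjusted p = 0.329) and *Foxj1* 0.23 (SE 0.30, adjusted p = 0.665). With the block *Foxa2* fell (log2 fold change -1.69, SE 0.20, adjusted p = 9.9e-05) and *Nkx2-9* rose (0.75, SE 0.26, adjusted p = 0.0419).

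Of 13 genes of the patterning signals, all tested, 0 rose and 3 fell in 2-DG without the block, where 17.6% of all genes were called. Their median was -0.17. The 3 were *Wnt3a* (log2 fold change -2.72, SE 0.52, adjusted p = 0.00634), *Fgf17* (-2.74, SE 0.52, adjusted p = 0.00572) and *Cyp26a1*, which degrades retinoic acid (-1.44, SE 0.39, adjusted p = 0.0280). All 3 are known from the tail bud. The Hedgehog receptor and target *Ptch1* had -0.10 (SE 0.14, adjusted p = 0.678), *Gli3* -0.05 (SE 0.13, adjusted p = 0.838), *Fgf8* 0.01 (SE 0.30, adjusted p = 0.994) and *Aldh1a2*, which makes retinoic acid, -0.17 (SE 0.53, adjusted p = 0.866). With the block 2 rose, *Bmp7* and *Gli2*, and 4 fell, *Id1* being the addition to the 3, where 41.3% of all genes were called.

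Pan-neural progenitor genes moved in both directions. Of 12, all tested, *Sox9* (log2 fold change 1.72, SE 0.34, adjusted p = 0.00741) and *Ncam1* (0.45, SE 0.10, adjusted p = 0.0101) rose and *Cdh2* (-0.21, SE 0.05, adjusted p = 0.0198) fell. *Nes* had -0.46 (SE 0.19, adjusted p = 0.127) and *Msi1* 0.33 (SE 0.10, adjusted p = 0.0539). The median was 0.29, and 17.6% of all genes were called without the block. With the block 4 rose, *Sox2*, *Sox9*, *Msi1* and *Ncam1*, and 2 fell, *Nes* and *Cdh2*, where 41.3% of all genes were called. The list summed to 733 to 900 CPM in 1× glucose and 779 to 891 CPM in 2-DG, which overlap, and none of its 12 genes was at 0 in any group.

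Markers of other cell types were read in the same way, and some lists had no called gene without the block. Each count below is to be read against the share of all genes called in 2-DG against 1× glucose. That share was 17.6% without the block and 41.3% with it. Of 7 neuromesodermal progenitor genes *T* (log2 fold change -1.57, SE 0.36, adjusted p = 0.0136) and *Wnt3a* fell and 0 rose without the block, and the list summed to 651 to 1414 CPM in 1× glucose and 481 to 644 in 2-DG. *Cdx1* had 0.22 (SE 0.22, adjusted p = 0.564), *Cdx2* -0.73 (SE 0.48, adjusted p = 0.333) and *Nkx1-2* -0.98 (SE 0.57, adjusted p = 0.273). With the block *Cdx1* rose and 5 fell, *T*, *Wnt3a*, *Cdx2*, *Cdx4* and *Nkx1-2*. Of 12 tested paraxial mesoderm and somite genes 0 were called without the block, with sums of 426 to 1262 CPM and 500 to 1092 CPM, and *Tbx6* had -0.64 (SE 0.22, adjusted p = 0.0714). *Foxc1* (0.06), *Foxc2* (-0.02) and *Meox1* (-0.00) had log2 fold changes near 0, and *Pax1* of this list had no count in either group. With the block *Meox2* rose and 5 fell, *Tbx6*, *Msgn1*, *Myf5*, *Tbx18* and *Uncx*.

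Of the neuron list 2 of 5 tested genes rose without the block, *Tubb3* (log2 fold change 1.40, SE 0.22, adjusted p = 0.00231) and *Neurog2* (1.69, SE 0.39, adjusted p = 0.0145), and sums went from 30.7 to 49.9 CPM in 1× glucose to 49.0 to 62.5 CPM in 2-DG. *Stmn2* (0.05) and *Isl1* (-0.02) had log2 fold changes near 0, and with the block *Elavl3* rose as well. Of 8 surface ectoderm genes *Dlx5* and *Krt18* rose and 0 fell, with sums of 54.9 to 145 CPM and 82.5 to 149 CPM. *Eya1* had a log2 fold change of 0.00 (adjusted p = 0.997), *Epcam* 0.58 (adjusted p = 0.207) and *Krt8* 0.42 (adjusted p = 0.359). With the block *Epcam*, *Krt8* and *Grhl2* rose as well.

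Of 8 pluripotent epiblast genes 0 were called without the block, with sums of 36.4 to 51.05 CPM and 55.2 to 68.2 CPM that did not overlap. Most of these sums was *Pou5f1*, with means of 33.3 CPM in 1× glucose and 48.8 CPM in 2-DG. Among single genes tested, 35.4% did not overlap between these groups. *Pou5f1* had a log2 fold change of 0.55 (SE 0.23, adjusted p = 0.133), *Nanog* 0.66 (adjusted p = 0.142), *Esrrb* 0.59 (adjusted p = 0.110) and *Klf4* -0.10 (adjusted p = 0.891). With the block 4 rose, *Pou5f1*, *Nanog*, *Esrrb* and *Fgf5*, and *Tdgf1* fell. Of 4 tested neural crest genes *Sox8* fell (-0.65, SE 0.19, adjusted p = 0.0362), with sums of 10.4 to 20.0 CPM and 9.37 to 12.4 CPM. *Ets1* had -0.51 (adjusted p = 0.505), *Snai2* -0.26 (adjusted p = 0.745) and *Foxd3* -1.62 (adjusted p = 0.338), and with the block *Ets1* and *Foxd3* fell as well. Of 6 endoderm genes 0 were called without the block, with sums of 6.54 to 170 CPM and 13.1 to 67.2 CPM. *Cer1* had -1.45 (adjusted p = 0.608), *Gata6* -0.70 (adjusted p = 0.551), *Sox17* -0.53 (adjusted p = 0.757) and *Foxa1* 0.42 (adjusted p = 0.384). With the block *Foxa1* rose and *Sox17* fell. The part of these cell types in the levels of the members was not tested. In 0× and 3× glucose 0 genes of these 12 lists were called, with or without the block.

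The genes whose log2 CPM followed a member most closely over the 12 libraries are given as a description, since the points share treatment and passage. For *Sox1* they were *Rragb* (r = 0.990), *Atp1b1* (0.984), *Scube3* (0.982), *Ccdc33* (0.980) and *Arfgef3* (0.979). For *Irx3* they were *Dusp3* (r = 0.992), *Rnf112* (0.990), *Ccdc33* (0.990), *Armcx3* (0.989) and *Atp2b1* (0.988), so that *Ccdc33* was among the first 5 of both. For *Pax6* they were *Vegfa* (r = 0.966), *Ndufb10* (0.954), *Ypel4* (0.954), *Ntrk2* (0.953) and *Isca1* (0.951). For the mean of the 9 tested members they were *Pknox2* (r = 0.980), *Brd8* (0.972), *Cog3* (0.971), *Stt3b* (0.970) and *Ssr1* (0.963).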

How the data were processed

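PolyA RNA of day 4 gastruloids was sequenced in 12 libraries, 3 in each of 4 groups. The authors deposited the estimated count of each of 120312 RefSeq transcripts per library, in whole numbers, made with Trim Galore, HISAT2, Picard and StringTie (mm10 per the submitters' processing notes). Versions, annotation and strand setting are not given in the sources used here. Because StringTie apportions reads between transcripts, the counts were summed per gene symbol with the RefSeq table of GRCm38.p6. The 3 deposited tables of the authors' fold changes and p-values were not used.

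All groups were fitted together with edgeR 4.0.16 in R 4.3.3 (filterByExpr, TMM, glmQLFit, glmQLFTest), two-sided, with Benjamini-Hochberg adjustment over all genes and a threshold of 0.05. The SE was taken from the F statistic. Passages were tested with 2 coefficients beside the group. A term for the 2-DG library of passage 13 was also tried after the values had been seen, and is not reported because it rests on 1 library. DESeq2 1.42.0 was an alternative. The fit without the block was tested on simulated data for 2-DG against 1× glucose. The simulated counts held no passage effect, and the other fits were not tested in this way. A gene with at most 3 counts in every library of a group was taken as at the floor, which covers counting error only. The total per library (31902471 to 45956080 counts) sets the precision. Transcript lengths are those of GENCODE M21.

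The labels give each replicate number an ES cell passage, so that the numbers pair the libraries. As a check, each library's deviation from its group mean was correlated over genes: the 18 pairs sharing a passage gave r between 0.096 and 0.623, the others between -0.440 and 0.191. At most 9.67% of values were identical between libraries. Libraries are separate cultures only as far as the labels say. The main fit of the treatments leaves this pairing out. Its p-values measure the spread between libraries of a group, which includes the spread between passages. In the fit with the passage as a block they measure the spread left beside the passage.

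The members and lists were chosen with earlier results of these data known. Named are all members, the 4 genes of each list with the highest mean CPM, list genes that were called, *Sox2*, and the 5 genes most correlated with *Sox1*, *Pax6*, *Irx3* and the members' mean. Results on 2 list genes are not reported here.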

Additional observations from a re-analysis of the deposited data

Results flagged for a closer look

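*Pax3* was higher in the 2-DG library of passage 13 than in its 1× control, with a log2 ratio of 1.02, and lower in those of passages 15 and 16, with log2 ratios of -0.50 and -0.43. Of the 8 members with a ratio in every passage, it was the 1 whose ratio of 2-DG to 1× glucose changed direction between passages. Each ratio rests on 1 library per group, no test of the difference is given, and its cause was not tested. Groups of 3 libraries were not searched for outliers.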

How the results depend on the processing

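In 2-DG against 1× glucose, 5 members were called with median-of-ratios factors and with DESeq2, without a filter (*Dbx1*, adjusted p = 0.0282, in place of *Pax6*, 0.0665) and, with *Sox3* in place of *Pax6*, without the 4 libraries of passage 13 (a choice made after seeing the data), 6 with the passage as replicate block and 4 with only the 2 groups fitted. With each gene's most abundant transcript alone 2 were called, and 3 against 0× glucose. Leaving out 1 library gave 3 to 5 calls, 3 without the 2-DG library of passage 13 or the 1× library of passage 15 or 16. *Irx5* and *Nkx6-1* were called under every alternative of both 2-DG comparisons (largest adjusted p 0.0116 and 0.0398), and *Sox1* in 2-DG against 0× glucose. Between passages 3 members were called without the term for the group. No alternative called a member in 0× or 3× glucose. Beside *Sox3*, the block changed no call of a member.

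Log2 fold changes of members that were not called changed sign as follows, and the cause was not tested. In 2-DG against 1× glucose *Pax3* was 0.026 with the block, and -0.69 to 0.46 when 1 library was left out. Against 0× glucose, leaving out 1 library gave -1.02 to 0.27 for *Pax3* and -2.03 to 0.036 for *Olig2*. In 0× glucose *Pax6* was -0.31 with its most abundant transcript, and without passage 13 *Pax7* was -0.0072 and *Irx3* 0.076. Leaving out 1 library there gave -0.25 to 0.26 for *Irx3*, -0.34 to 0.011 for *Irx5*, -1.51 to 0.84 for *Olig2*, -0.51 to 1.03 for *Pax3*, -0.18 to 0.16 for *Pax6*, -0.10 to 0.51 for *Pax7*, -0.81 to 0.081 for *Sox1* and -1.13 to 0.75 for *Sox3*. In 3× glucose *Irx5* was -0.0022 without a filter and -0.13 without passage 13, and *Pax6* was 0.15 with its most abundant transcript. Leaving out 1 library there gave -0.30 to 0.35 for *Irx3*, -0.15 to 0.13 for *Irx5*, -0.26 to 0.031 for *Nkx6-1*, -0.81 to 0.67 for *Olig2*, -0.88 to 0.43 for *Pax3*, -0.090 to 0.52 for *Pax7*, -0.29 to 0.43 for *Sox1* and -0.47 to 1.21 for *Sox3*. *Olig2*, *Nkx6-1* and *Dbx1* had at most 45 counts in a library, which limits their precision.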
